A study of Mus musculus with 2 samples.

Results

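The 10 genes described here encode enzymes of glycolysis and an exporter of its end product, lactate. They are Hk1, Hk2, Aldoa, Tpi1, Gapdh, Pgk1, Eno1, Pkm, Ldha and Slc16a3, chosen by symbol, and each was found once among the 27998 gene models of the deposited matrices. The cells were mouse α4β7-positive lymphoid progenitors profiled by droplet single-cell RNA sequencing. There was 1 library from fetal liver at E14.5, in mid-gestation, and 1 from adult bone marrow. Both were from untreated wild-type B6 mice and were sorted as live cells that carried CD45, CD127 and α4β7 and lacked lineage antigens, Flt3 and CD25. The age written in the sample labels is the same for both and cannot hold for a fetal liver, so it was not used. On mm10, by the GENCODE M21 annotation, Hk2 (chr6:82725025-82774454), Tpi1 (chr6:124810586-124814296) and Gapdh (chr6:125161715-125166467) lie on the minus strand of chromosome 6. Aldoa (chr7:126795234-126800751) and Hk1 (chr10:62268855-62379908) are also on the minus strand. Ldha (chr7:46841475-46855627), Eno1 (chr4:150236721-150248879), Pkm (chr9:59656368-59679375), Slc16a3 (chr11:120948480-120960868) and Pgk1 (chrX:106187100-106203699) are on the plus strand. Whether each library pooled animals is not given in the sources used here.

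Glycolysis breaks glucose down to pyruvate in the cytosol and yields ATP without oxygen. Hexokinases trap glucose in the cell as glucose 6-phosphate, the enzymes that follow carry the carbon to pyruvate, and lactate dehydrogenase turns pyruvate into lactate, which monocarboxylate transporters carry out of the cell. Dividing lymphocytes are known for high glycolytic flux. Hypoxia-inducible factors and MYC are known activators of many genes of the pathway, and both bind DNA at E-box-like sites.

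Cells with at least 500 detected genes and at most 10% of their molecules on mitochondrially encoded genes were kept, which left 8583 of 8946 fetal liver barcodes and 7258 of 7367 bone marrow barcodes. The counts are of unique molecular identifiers (UMIs), that is, of tagged RNA molecules. The kept fetal liver cells held 91285900 UMIs (median 9294 per cell), and the kept bone marrow cells 29941097 (median 3448). Levels are given as counts per 1000000 UMIs (CPM) of the summed cells, that is, as shares of the RNA counted. Since there was 1 library per tissue, no replicate check was possible, no p-value was computed, and each interval covers counting error only. Tissue, age, animal and library cannot be told apart. The libraries also differed in sex-linked transcripts: Xist, which is transcribed from the inactive X chromosome, had 23018 UMIs in fetal liver against 2 in bone marrow, while the Y-linked Ddx3y had 1796 and 2235 UMIs. UMIs came from the 3' ends of transcripts and were not scaled by length, so levels were compared between tissues and cells but not between genes. Where Hk2 is given as a share of the UMIs of several genes, that share serves only to compare tissues and cells. In addition, 19 barcodes occurred in both libraries, and leaving them out changed neither count of genes past 2-fold between the whole libraries.

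The genes of the sorted proteins were present in both libraries. Il7r, which encodes CD127, had 178 CPM in fetal liver against 417 CPM in bone marrow. Itgb7, the β7 chain of the integrin, had 47.9 CPM in fetal liver against 61.8 CPM in bone marrow. Of the proteins sorted against, Flt3 had 1.45 CPM in fetal liver against 1.20 CPM in bone marrow, and Il2ra, which encodes CD25, had 1.08 CPM in fetal liver against 7.78 CPM in bone marrow. Markers of other cells were present too. The 16 markers of myeloid, erythroid and mast cells summed to 514 CPM in fetal liver against 249 CPM in bone marrow, and the 9 B lineage markers to 151 CPM and 33.9 CPM. The 8 hepatocyte markers summed to 13.9 CPM in fetal liver against 12.3 CPM in bone marrow, where Alb, Ttr, Serpina1a and Fgb were at 0. The 7 T cell markers differed most, with 321 CPM in fetal liver against 15.2 CPM in bone marrow, and in the NK or ILC1 gate described further on with 393 CPM against 23.5 CPM. The 8 markers of endothelium and stroma went the other way, with 42.8 CPM in fetal liver against 133 CPM in bone marrow, where Col3a1 and Dcn were at 0. In the LTi or ILC3 gate of bone marrow, described further on, these 8 markers summed to 205 CPM with only 2 of them detected. Their sum there thus rested on few markers. The part of such other cells in the results was not tested.

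The sequences just upstream of RefSeq starts of the genes show where factors that bind E-box-like sites could find a match. Printed are 3 of them, for the hexokinase that goes against the rest, the dehydrogenase with the most such matches, and a gene between the pair. They are the 250 bases before the RefSeq start of each gene, in the direction of transcription, on GRCm38.p6. The window of Hk2 is chr6:82774455-82774704 on the minus strand, that of Ldha is chr7:46845554-46845803 on the plus strand, and that of Pgk1 is chrX:106186850-106187099 on the plus strand. Capitals mark matches on either strand to ACGTG, the core of the hypoxia response element, and to GGGCGG, the GC box. CACGTG, the canonical E-box, contains ACGTG on both strands.
Hk2: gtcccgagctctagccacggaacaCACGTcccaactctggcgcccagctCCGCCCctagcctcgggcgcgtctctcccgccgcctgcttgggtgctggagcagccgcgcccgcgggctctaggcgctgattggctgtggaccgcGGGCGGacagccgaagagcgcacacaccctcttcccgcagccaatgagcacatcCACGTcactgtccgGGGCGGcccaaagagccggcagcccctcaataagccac
Ldha: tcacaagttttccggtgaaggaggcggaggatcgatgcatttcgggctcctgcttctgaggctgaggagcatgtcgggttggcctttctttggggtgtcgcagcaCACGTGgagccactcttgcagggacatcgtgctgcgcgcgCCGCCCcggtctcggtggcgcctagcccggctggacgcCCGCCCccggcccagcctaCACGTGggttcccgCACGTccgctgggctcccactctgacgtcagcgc
Pgk1: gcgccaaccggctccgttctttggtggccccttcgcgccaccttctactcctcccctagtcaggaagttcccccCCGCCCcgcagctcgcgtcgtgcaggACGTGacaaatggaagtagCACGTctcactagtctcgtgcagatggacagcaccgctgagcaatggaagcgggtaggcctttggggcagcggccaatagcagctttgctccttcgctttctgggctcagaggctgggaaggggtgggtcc
The Hk2 window held 2 matches to ACGTG and 3 to GGGCGG. The Ldha window held 5 matches to ACGTG, 4 of them as the 2 strands of 2 CACGTG sites, and 2 to GGGCGG. This window lies inside the span of Ldha given above. Another RefSeq start of Ldha, farther downstream, has a window with no match to any of the 3 motifs. A run of 30 bases just after the printed start of Ldha was found in no GENCODE M21 transcript of the gene, unlike that of Hk2 and that of Pgk1. The Pgk1 window held 2 matches to ACGTG and 1 to GGGCGG. Over all 10 genes, ACGTG was found in at least 1 window of 6 (Hk2, Aldoa, Pgk1, Pkm, Ldha and Slc16a3), against 18.5% of the 27025 genes with such a window. Some genes have several windows, and by window it was 7 of 17, against 16.6% of 32851. The windows of Aldoa with a match overlap each other, so 1 match may be counted in both. The windows of Pkm and Slc16a3 with a match overlap annotated exons. CACGTG was found for 1 gene, Ldha, against 6.86% of genes, and GGGCGG for 8 genes, against 35.4% of genes. A match describes the letters only, and is neither a site nor a cause.

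At least 2-fold higher in fetal liver were 7 of the 10 genes, against 7.25% of the 6938 genes that reached 10 CPM in either library. Only Hk2 was at least 2-fold higher in bone marrow, against 10.9% of those genes. Hk1 and Pgk1 lay within 2-fold. The median of the log2 ratios (fetal liver over bone marrow) was 1.53 over the 10 genes and 0.01 over all genes tested. Because the genes were chosen with results of these data known, these counts describe them and do not test them. Both counts were the same without the cells gated as B lineage or as myeloid, erythroid or mast.

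**Figure D1:**
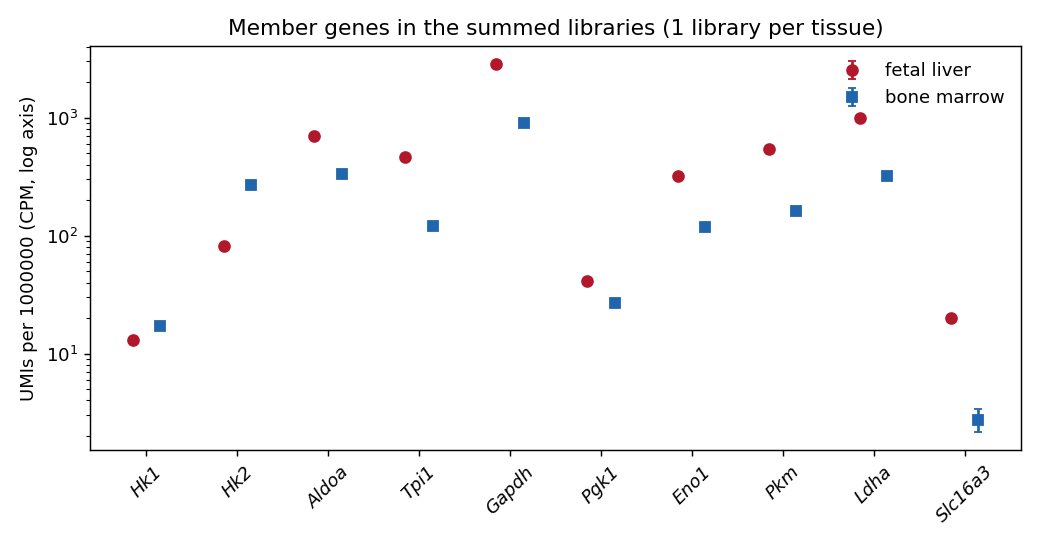
Level of each gene in the summed cells of fetal liver (circles) and bone marrow (squares), in CPM on a log axis, with 95% Poisson intervals that are mostly smaller than the symbols. Hk2 stands at 81.5 CPM in fetal liver, below its 270.0 CPM in bone marrow, whereas Slc16a3 stands at 20.2 CPM, above 2.74 CPM.

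Hexokinase catalyses the first step. Hk2, the inducible hexokinase that binds mitochondria, had 7441 UMIs in fetal liver against 8084 in bone marrow, although the fetal liver library held the larger total. This came to 81.5 CPM in fetal liver against 270.0 CPM in bone marrow. The log2 ratio was -1.73 (95% interval -1.77 to -1.68), so that Hk2 was 3.31-fold higher in bone marrow. Hk1, the hexokinase of most tissues, was far less different, at 13.1 CPM in fetal liver against 17.1 CPM in bone marrow (log2 ratio -0.39, -0.54 to -0.24). Hk2 made up 86.2% (85.4 to 86.9) of the UMIs of these 2 hexokinases in fetal liver and 94.0% (93.5 to 94.5) in bone marrow. Both hexokinases were thus lower in fetal liver, and Hk2 by more.

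The enzymes that split and oxidise the sugar were higher in fetal liver. Aldoa, the aldolase of muscle and most other tissues, had 693 CPM in fetal liver against 334 CPM in bone marrow (log2 ratio 1.05, 1.02 to 1.08). Tpi1, which interconverts the triose phosphates, had 466 CPM in fetal liver against 120.3 CPM in bone marrow (1.95, 1.90 to 2.00). Gapdh, the dehydrogenase that makes NADH, had 2823 CPM in fetal liver against 896 CPM in bone marrow (1.66, 1.64 to 1.67). Aldoa was the smallest of these differences, and it lay below 2-fold when every cell was thinned to 2000 UMIs (0.86) or given equal weight (0.83).

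The enzymes of the pay-off steps differed among themselves. Pgk1, the first ATP-yielding kinase, was the least different, at 41.3 CPM in fetal liver against 26.9 CPM in bone marrow (0.62, 0.51 to 0.73). It is X-linked, so its ratio and the sexes of the animals cannot be told apart. Eno1, an enolase, had 322 CPM in fetal liver against 119 CPM in bone marrow (1.44, 1.39 to 1.49). Pkm, the pyruvate kinase of non-hepatic cells, had 539.5 CPM in fetal liver against 161 CPM in bone marrow (1.75, 1.71 to 1.79), and 3' counts do not separate its M1 and M2 isoforms.

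The final steps make and export lactate. Ldha, the lactate dehydrogenase subunit of glycolytic tissues, had 999 CPM in fetal liver against 322 CPM in bone marrow (1.63, 1.60 to 1.66). Slc16a3, which encodes the lactate exporter MCT4, differed most of the 10 genes, with 20.2 CPM in fetal liver against 2.74 CPM in bone marrow (2.88, 2.56 to 3.22). It was 7.37-fold higher in fetal liver, on 1843 UMIs in fetal liver against 82 in bone marrow. Near-identical copies that could take reads were found for 3 of the genes among the gene models of the matrices. The copy Gm3839 of Gapdh had 818 UMIs in fetal liver against 68 in bone marrow. The copy Eno1b of Eno1 had 70 and 12, and the copy Aldoart1 of Aldoa had 3 and 0. These counts do not bound the reads that the 3 genes lost, which were not measured. Copies outside those gene models were not searched for any of the 10 genes.

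**Figure D2:**
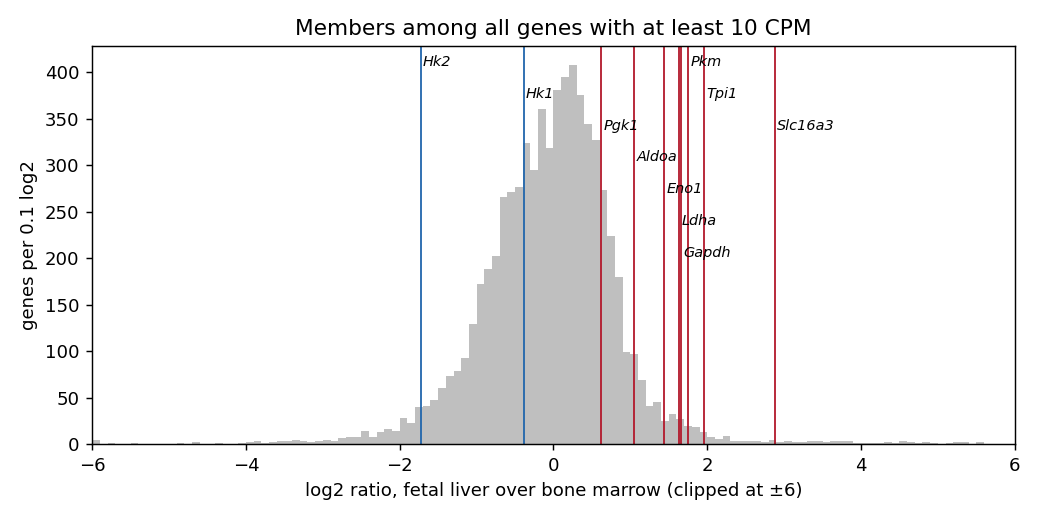
Histogram of the log2 ratio, fetal liver over bone marrow, of genes that reached 10 CPM in either library, in bins of 0.1, with the 10 genes as vertical lines. Hk2 at -1.73 lies in the left flank, and Slc16a3 at 2.88 lies farthest to the right of the 10.

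In single cells the lower quartile of fetal liver lay above the upper quartile of bone marrow. The 9 genes other than Hk2 together took a median of 0.511% of a cell's UMIs in fetal liver (quartiles 0.381% and 0.674%, maximum 2.21%) and 0.166% in bone marrow (quartiles 0.110% and 0.238%, maximum 0.807%). Summed, they had 5917 CPM in fetal liver against 1999 CPM in bone marrow. After each cell was thinned to 2000 UMIs, which left out 131 shallower fetal liver cells and 1335 bone marrow cells, Gapdh had a UMI in 98.3% of fetal liver cells and in 73.5% of bone marrow cells, and Ldha in 74.5% and 42.1%. Hk2 had a UMI in 16.0% (15.2 to 16.8) of fetal liver cells and in 36.0% (34.8 to 37.2) of bone marrow cells. Before thinning these shares were 46.6% in fetal liver, against 45.4% in bone marrow. The median depth differed 2.70-fold between the tissues. Slc16a3 had a UMI in 3.66% of thinned fetal liver cells and in 0.574% of bone marrow cells. No cell type here is known to lack these genes, so the share that free RNA alone would give could not be set.

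Hk2 therefore held a different place among the 10 genes in each tissue. It made up 1.36% (1.33 to 1.39) of their UMIs in fetal liver, against 11.9% (11.7 to 12.1) in bone marrow. To see whether this followed the mix of cells, cells were gated by marker genes on the thinned counts: a cell entered a gate with at least 2 distinct markers of it and more than of any other gate. The gates are ranges of marker counts and not cell types. The gate of LTi or ILC3 markers (lymphoid tissue inducer cells and group 3 innate lymphoid cells, ILCs) held 1289 fetal liver cells and 609 bone marrow cells. The gate of NK or ILC1 markers (natural killer cells and group 1 ILCs) held 2712 and 924. The gates of ILC2 progenitor markers held 268 and 621 cells, of PLZF ILC progenitor markers 590 and 1049, of lymphoid progenitor markers 66 and 145, and of myeloid, erythroid or mast cell markers 295 and 60. A B lineage gate held 165 fetal liver cells but 1 bone marrow cell and was not compared. In no gate were 2378 fetal liver cells and 1653 bone marrow cells, and 689 and 861 were tied between gates. The gates were not equally pure: in bone marrow the genes leading the LTi or ILC3 gate included the MHC class II genes H2-Aa, H2-Ab1 and H2-Eb1, with 1 of 12 gate markers (Lta) in the top 10, and in fetal liver the mast cell protease genes Cma1 and Tpsb2 led the ILC2 progenitor gate. The lymphoid progenitor gate was led by Siglech, Ly6d and Mpeg1 in fetal liver and by genes that included Ly6d and Dntt in bone marrow. Doublets, droplets with a pair of cells, were not removed.

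Hk2 was lower in fetal liver in all 6 gates shared by the tissues and at least 2-fold lower in 5. In the LTi or ILC3 gate it had 135 CPM in fetal liver against 331 CPM in bone marrow (log2 ratio -1.29). In the NK or ILC1 gate it had 90.3 CPM in fetal liver against 327 CPM in bone marrow (-1.86). In the ILC2 progenitor gate the values were 69.2 CPM and 322 CPM (-2.22), and in the PLZF ILC progenitor gate 73.9 CPM in fetal liver against 349 CPM in bone marrow (-2.24). Within bone marrow these 4 gates lay close together, whereas in fetal liver the LTi or ILC3 gate stood above the other 3. The lymphoid progenitor gate was low in both tissues, at 15.3 CPM in fetal liver (9 UMIs) and 46.5 CPM in bone marrow (40 UMIs). The myeloid, erythroid or mast gate differed least, at 54.5 CPM in fetal liver against 91.9 CPM in bone marrow (-0.76, -1.25 to -0.22). As a share of the UMIs of all 10 genes, Hk2 ranged over gates from 0.415% in the lymphoid progenitor gate to 2.69% in the LTi or ILC3 gate of fetal liver. In bone marrow it ranged from 2.52% in the lymphoid progenitor gate to 18.0% in the PLZF ILC progenitor gate.

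The other way in every shared gate went 6 enzymes, Aldoa, Tpi1, Gapdh, Eno1, Pkm and Ldha. In all 6 gates Eno1 and Pkm were higher in fetal liver by 2-fold or more, with log2 ratios of 1.17 to 1.86 for Eno1 and 1.33 to 2.14 for Pkm. The ratio of Tpi1 ran to 3.10 in the ILC2 progenitor gate, where it had 667 CPM in fetal liver against 77.9 CPM in bone marrow. Among cells of that gate alike in cell cycle genes the ratio was smaller, as given further on. Ldha in the same gate had 1720 CPM in fetal liver against 404 CPM in bone marrow. Aldoa was nearly level in the LTi or ILC3 gate, at 457 CPM in fetal liver against 412 CPM in bone marrow (0.15), and at 1.01 to 1.46 in the other 5. Slc16a3 reached 4.32 (3.09 to 5.95) in the NK or ILC1 gate, on 611 UMIs in fetal liver against 5 in bone marrow. In the myeloid, erythroid or mast gate it had 137 UMIs in fetal liver against 0 in bone marrow, a log2 ratio of at least 1.72 with 3 UMIs set for the 0. Pgk1 was higher in fetal liver in 5 gates, at least 2-fold in 1. Hk1 was higher in 1 gate.

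The count of genes past 2-fold varied by gate. In the LTi or ILC3 gate 4 of the 10 genes were that much higher in fetal liver (7.52% of all genes tested there) and 1 was that much lower (12.5%). In the NK or ILC1 gate 7 were higher (8.1%) and 1 lower (10.6%). In the ILC2 progenitor gate 8 were higher (13.2%) and 1 lower (18.1%), and in the PLZF ILC progenitor gate 7 were higher (9.74%) and 1 lower (11.1%). The lower gene was Hk2 in each of these 4 gates. In the lymphoid progenitor gate 4 were higher (11.9%) and 2, Hk1 and Hk2, lower (10.8%), on few UMIs. In the myeloid, erythroid or mast gate 7 were higher (11.4%) and none lower (15%). Cells outside the gates were alike: among tied cells 6 genes were higher (10.2%) and 1 lower (11.7%), and among cells in no gate 7 were higher (4.29%) and 1 lower (9.44%).

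**Figure D3:**
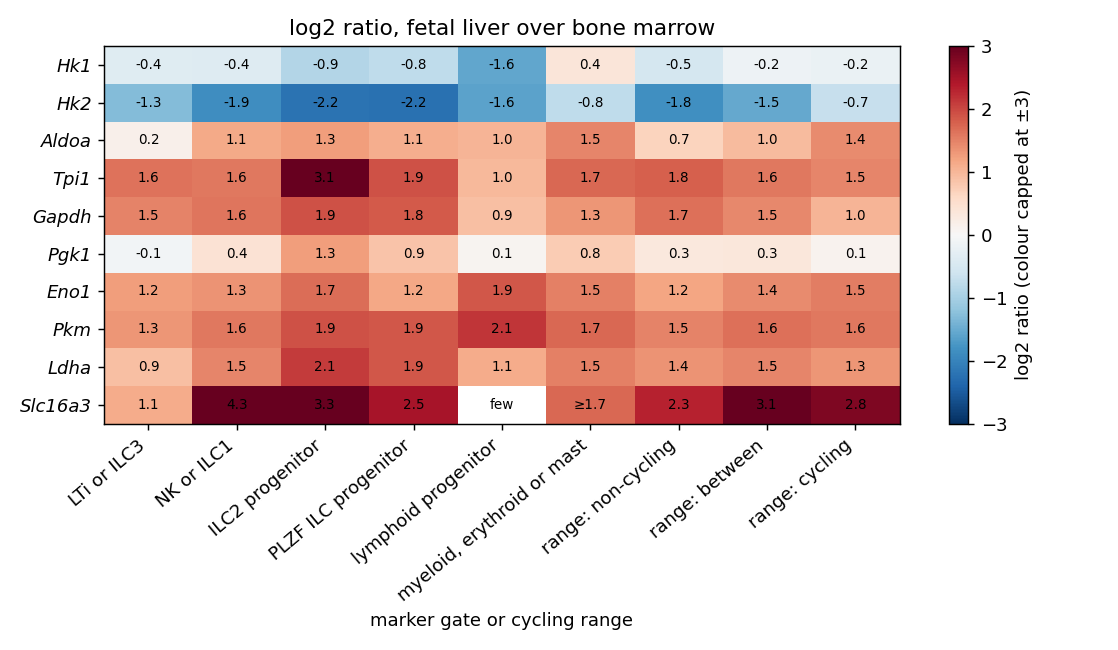
Fetal liver over bone marrow ratio on the log2 scale for each gene (rows) in the 6 shared marker gates and the 3 cycling ranges (columns), red where higher in fetal liver and blue where lower. The sign ≥ marks a bound set with 3 UMIs for a 0, and "few" marks at most 3 UMIs in both tissues. Hk2 is blue in every column, from -2.24 to -0.70.

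More fetal liver cells were called cycling. The S phase genes summed to 1704 CPM in fetal liver against 879 CPM in bone marrow, and the G2 and M phase genes to 2789 CPM and 928 CPM. Cells were called cycling with at least 5 UMIs on 30 S phase genes or on 30 G2 and M phase genes per 2000 UMIs, non-cycling with at most 1 on each, and between otherwise. Of cells with at least 2000 UMIs, cycling cells were 47.8% of the fetal liver cells (4039) and 12.5% of the bone marrow cells (740). Non-cycling cells were 22.1% (1867) in fetal liver and 64.3% (3808) in bone marrow. The limits cut through a continuum, since 15.9% of fetal liver cells and 5.15% of bone marrow cells had 4 or 5 UMIs on their higher list, and free RNA can add UMIs of these genes, whose part was not tested. Cycling cells were also deeper, with a median of 11716 UMIs, against 6431 in non-cycling cells, in fetal liver, and 7275 against 3511 in bone marrow.

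Within each range the tissues differed much as they did overall. Among non-cycling cells, 6 of the 10 genes were higher by 2-fold or more in fetal liver (6.57% of all genes) and 1, Hk2, lower by as much (8.66%). Among cells between the limits, 6 were at least 2-fold higher (5.46%) and Hk2 at least 2-fold lower (9.44%). Among cycling cells, 7 were at least 2-fold higher (4.41%) and none at least 2-fold lower (7.3% of all genes). Hk2 had 98.0 CPM in non-cycling fetal liver cells and 352 CPM in non-cycling bone marrow cells (log2 ratio -1.85). It had 75.0 CPM in cycling fetal liver cells and 122 CPM in cycling bone marrow cells (-0.70). Over all cells of a range, whatever their gate, the gap in Hk2 was thus widest in non-cycling cells. As a share of the UMIs of all 10 genes, Hk2 took 2.16% in non-cycling, 1.49% in between and 1.16% in cycling fetal liver cells, against 17.2%, 10.4% and 4.21% in the same ranges of bone marrow. The share was lower in cycling than in non-cycling cells of either tissue. Gates and cycling ranges were also crossed, which gave 10 pairs with at least 50 cells in both tissues. Hk2 was lower in fetal liver in all 10 and at least 2-fold lower in 9, the exception being cycling cells of the LTi or ILC3 gate (-0.36, -0.77 to 0.08), with 322 fetal liver cells and 52 bone marrow cells. In the NK or ILC1 gate the ratio of Hk2 was -1.95 in non-cycling and -1.19 in cycling cells. In the ILC2 progenitor gate it was -1.76 between the limits and -1.90 in cycling cells, so the gap was not smaller there. In all 10 pairs Eno1 and Pkm were higher in fetal liver by 2-fold or more. Tpi1 passed 2-fold in 9 pairs, Slc16a3 in 8, Gapdh in 7, Ldha in 6, Aldoa in 4 and Pgk1 in 1. The count of Slc16a3 rests on few bone marrow UMIs. There were 3 in non-cycling and 0 in cycling cells of the NK or ILC1 gate, the 0 giving a bound only. There were 2 in cycling cells of the LTi or ILC3 gate (1.16, -0.79 to 4.25). The shares of all genes past 2-fold in these pairs are not given here. Aldoa was slightly lower in fetal liver in non-cycling cells of the LTi or ILC3 gate (-0.12, -0.26 to 0.03). In the ILC2 progenitor gate the ratio of Tpi1 was 2.35 between the limits and 2.27 in cycling cells, against 3.10 over the gate. That of Ldha was 1.93 and 1.81, against 2.09.

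**Figure D4:**
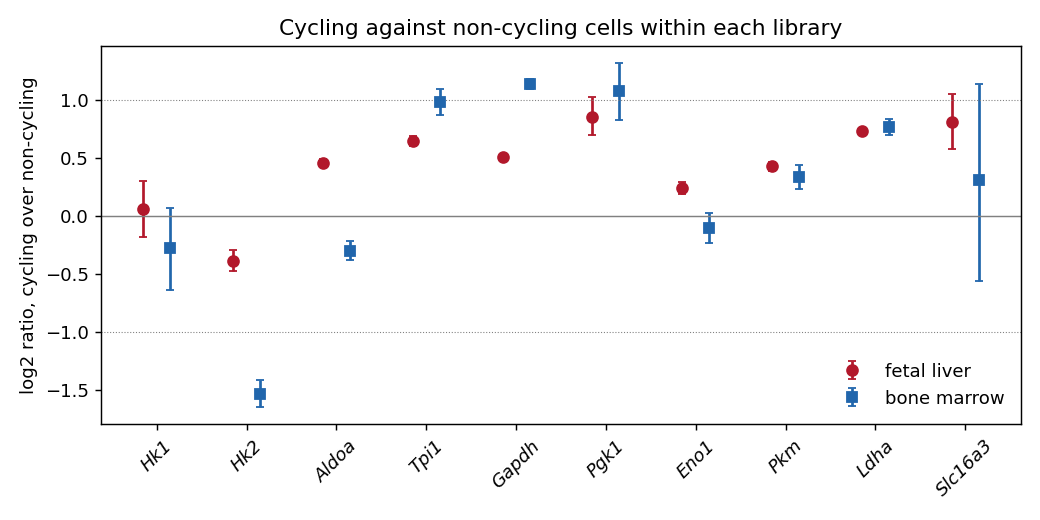
Log2 ratio of cycling over non-cycling cells for each gene within fetal liver (circles) and within bone marrow (squares), with 95% intervals for counting error and dotted lines at 2-fold. Hk2 in bone marrow lies at -1.53, below the lower dotted line, and Gapdh and Pgk1 in bone marrow lie above the upper one.

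Cycling cells were then set against non-cycling cells of the same tissue. In fetal liver 9 of the 10 genes were higher in cycling cells, none by 2-fold (5.96% of all genes) and none lower by 2-fold (3.25%). Ldha had 1110 CPM in cycling and 669 CPM in non-cycling fetal liver cells (log2 ratio 0.73), and Hk2 had 75.0 CPM and 98.0 CPM (-0.39, -0.48 to -0.29). In bone marrow, Gapdh and Pgk1 were at least 2-fold higher in cycling cells (8.88% of all genes) and Hk2 at least 2-fold lower (6.5%). Gapdh had 1498 CPM in cycling and 679 CPM in non-cycling bone marrow cells (1.14), and Pgk1 had 43.6 CPM and 20.7 CPM (1.08). Hk2 had 122 CPM in cycling and 352 CPM in non-cycling bone marrow cells (-1.53, -1.64 to -1.42).

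The drop of Hk2 in cycling bone marrow cells was smaller within gates. Its log2 ratio of cycling over non-cycling cells was -1.24 in the LTi or ILC3 gate, -0.95 in the NK or ILC1 gate and -0.58 in the ILC2 progenitor gate. In the lymphoid progenitor gate it was 0.40 (-0.70 to 1.56), on 20 and 12 UMIs. With each gate weighing the same, the mean was -0.59 over the 4 gates, against -1.53 over all cells. The lymphoid progenitor gate, on few UMIs, raised this mean and was the only gate with a positive ratio. The PLZF ILC progenitor gate held fewer than 50 cycling bone marrow cells and was left out. The steepest drop was among ungated cells (-1.77), which made up 408 of the 740 cycling bone marrow cells. In fetal liver the mean over 3 gates was -0.17, against -0.39 over all cells.

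**Figure D5:**
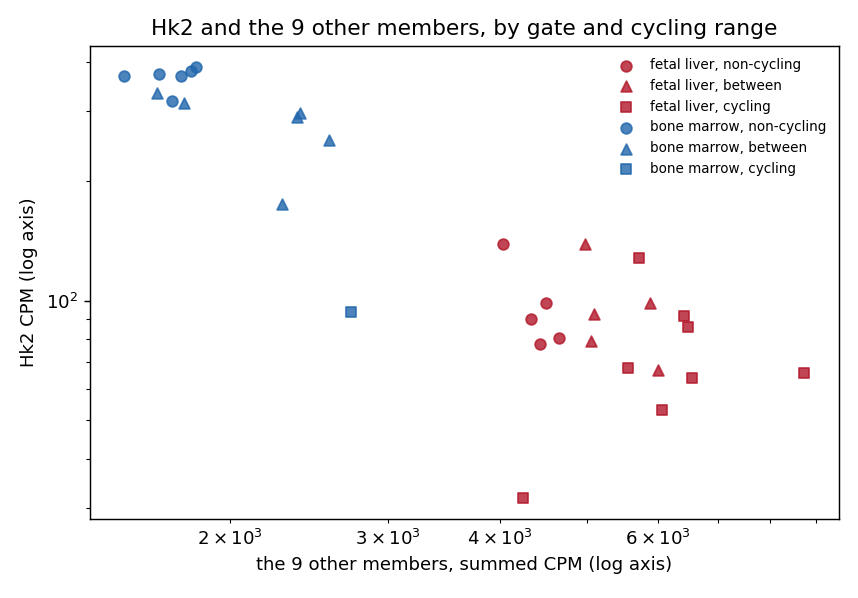
Hk2 level against the summed level of the 9 other genes, both in CPM on log axes, in the 31 sets of at least 100 cells made by tissue, gate and cycling range. The fetal liver sets (red) lie at 4033 to 8745 CPM of the 9 others and the bone marrow sets (blue) at 1522 to 2730 CPM, with no overlap on that axis.

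Across 31 sets of at least 100 cells made by tissue, gate and cycling range, 18 in fetal liver and 13 in bone marrow, the 9 other genes summed to 4033 to 8745 CPM in fetal liver and 1522 to 2730 CPM in bone marrow. The ranges did not overlap. The limit of 100 cells left cycling bone marrow cells only in the ungated set. It also left out the lymphoid progenitor gate of fetal liver, with 66 cells and 3671 CPM of the 9 others. The share of all genes whose ranges would also not overlap is not given here. Hk2 itself had 31.9 to 139 CPM in fetal liver sets and 93.6 to 387 CPM in bone marrow sets, which did overlap. Sets of 1 tissue share a library, so correlations over them are descriptions. Hk2 and Gapdh had a Pearson r of -0.90 over all sets, -0.13 within fetal liver and -0.86 within bone marrow. Hk2 and Ldha had -0.86 over all sets, -0.34 within fetal liver and -0.54 within bone marrow. Over all sets r with Hk2 was negative for 8 of the 9 genes, and 0.57 for Hk1. Within fetal liver it ran from -0.43 for Pgk1 to 0.55 for Hk1, with 0.38 for Pkm, 0.13 for Slc16a3 and 0.10 for Eno1. Within bone marrow Hk1 (0.38), Eno1 (0.33) and Aldoa (0.17) had a positive r. Of 3312 genes with at least 50 CPM in at least 1 set, those most like Hk2 over all sets included H2-Oa (0.95), Stk24, Btg1 and Cd84, and those most like the 9 others summed were Psma5 (0.98), Psmd6, Ostc, Psma2 and Psmd12, of which Psma5, Psma2, Psmd6 and Psmd12 encode proteasome subunits. Within fetal liver the genes most like Hk2 were Tonsl (0.97), Tmbim6, Hcst, Cxcl3 and Furin, and within bone marrow Gem (0.97), Kdm7a, Gimap6, Gimap5 and Id2, so none of the genes named for all sets recurred within a tissue.

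Cells with and without a Hk2 UMI held nearly the same number of UMIs of the other genes. Thinning removed Hk2 from many cells, since in fetal liver 46.6% had a UMI before it and 16.0% after. This split therefore cannot decide whether Hk2 and the others vary together between cells. Thinned fetal liver cells with a Hk2 UMI had 10.8 ± 5.45 UMIs of the 9 others (mean ± SD over 1352 cells), and those without had 11.0 ± 5.55 (7100 cells). In bone marrow these values were 3.72 ± 2.41 in 2132 cells with and 3.75 ± 2.50 in 3791 cells without. Among cycling bone marrow cells they were 6.35 ± 3.04 in 138 cells with a Hk2 UMI and 5.28 ± 3.01 in 602 cells without, the largest gap of the ranges in either tissue. A Hk2 UMI was found in 13.4 to 15.6% (95% interval) of cycling and 15.7 to 19.1% of non-cycling fetal liver cells, and in 15.9 to 21.6% of cycling and 38.0 to 41.1% of non-cycling bone marrow cells.

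The remaining genes of the pathway had a lower median ratio than the 10. Since the 10 were chosen with results of these data known, this describes the genes and tests nothing. Of all genes tested, 7.25% passed 2-fold in favour of fetal liver and 10.9% in favour of bone marrow. Of 21 other glycolysis genes, 8 reached 10 CPM, and 1 of these passed 2-fold in favour of fetal liver and none in favour of bone marrow. Their median log2 ratio was 0.39. That gene was Pgam1, phosphoglycerate mutase, with 312 CPM in fetal liver against 103 CPM in bone marrow (1.60). Pfkl, the liver-type phosphofructokinase, had 24.9 CPM in fetal liver against 12.6 CPM in bone marrow (0.98), and Gpi1, which makes fructose 6-phosphate, had 231 CPM and 127 CPM (0.86). Of 10 other transport genes, 3 were tested and 2 passed 2-fold in favour of fetal liver. Slc2a1, the glucose importer GLUT1, had 11.4 CPM in fetal liver against 3.91 CPM in bone marrow (1.55). Bsg, the chaperone that carries monocarboxylate transporters to the membrane, had 340 CPM in fetal liver against 163 CPM in bone marrow (1.06), while Emb, another such chaperone, was nearly level at 169 CPM and 181 CPM. None of 5 genes for the PFKFB enzymes and Tigar reached 10 CPM.

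Of 13 HIF and MYC regulator genes, 11 were tested, none passed 2-fold in favour of fetal liver and 1 in favour of bone marrow, against 7.25% and 10.9% of all genes tested. The median log2 ratio was -0.48. The one was Mycn, with 5.62 CPM in fetal liver against 16.0 CPM in bone marrow (-1.51). Arnt, the partner of hypoxia-inducible factors, had 9.38 CPM in fetal liver against 16.4 CPM in bone marrow (-0.81), and Egln3, a prolyl hydroxylase that marks them for decay, had 9.57 CPM and 15.2 CPM (-0.67). Hif1a and Myc, named here after their values were seen, had log2 ratios of -0.61 and -0.32. Of 17 hypoxia response genes, 12 were tested. Against the same 7.25% and 10.9% of all genes, 4 passed 2-fold in favour of fetal liver and 2 in favour of bone marrow. Vegfa, a growth factor for vessels, was the most different, with 2.30 CPM in fetal liver against 15.3 CPM in bone marrow (-2.74). Ankrd37 had 24.1 CPM in fetal liver against 6.68 CPM in bone marrow (1.85), and Slc2a1, given above, also stands in this list.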

How the data were processed

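The authors deposited UMI counts as 10x matrices with no normalization, from a 3' kit, per the labels' protocols. The matrix software was version 3.0.1 and the format version 2, per the file headers, and the submitters' processing notes name mm10 and Seurat 4.0. The aligner is not given in the sources used here. Deposited gene and barcode lists hold names only (other).

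From these, counts were summed per library, gate and cycling range and scaled to CPM. Log2 ratios have exact conditional binomial 95% intervals, shares Clopper-Pearson intervals and CPM Poisson intervals. PCR and free RNA are not covered by them. Cells were thinned to 2000 UMIs for gates, cycling calls and shares only. A count of 0 was set to 3 for bounds. The 3-count level was 0.0329 CPM in fetal liver against 0.100 CPM in bone marrow. The scripts were tested on simulated counts. Genes are named by 1 rule: all 10 members, the 3 largest ratios per list, and the 5 most correlated genes over sets of cells by log2(CPM + 1). A gene that this rule names is not reported here. Members and lists were chosen with earlier results of these data known. Python 3.11.15, numpy 2.4.6, scipy 1.17.1, pandas 2.3.3, R 4.3.3, edgeR 4.0.16 (TMM factors only) and blastn 2.17.0 were used, the last for near-identical copies (at least 95% identity over 300 of the final 500 transcript bases). Promoter windows come from RefSeq on GRCm38.p6.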

Additional observations from a re-analysis of the deposited data

Results flagged for a closer look

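Cycling over non-cycling ratios had opposite signs in the tissues for 3 genes, and the difference was not tested, since each tissue has 1 library. Aldoa had a log2 ratio of 0.46 in fetal liver and -0.30 in bone marrow, a difference of 0.76, and both counting intervals left out 0. Eno1 had 0.24 in fetal liver and -0.10 (-0.23 to 0.03) in bone marrow, a difference of 0.34. Hk1 had 0.06 (-0.18 to 0.31) in fetal liver and -0.27 (-0.63 to 0.07) in bone marrow, a difference of 0.33.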

How the results depend on the processing

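No paired analysis was possible because each tissue has 1 library, and for the same reason no replicate could be left out. Over the alternatives, 6 or 7 genes passed 2-fold in favour of fetal liver and 1 in favour of bone marrow, and 6 or 7 were higher in every shared gate, with 4 gates shared instead of 6 when 3 markers were required or cells were thinned to 1000 UMIs. The log2 ratio of Hk2 ran over -1.77 to -1.54 and that of Slc16a3 over 2.56 to 3.04, and no ratio changed sign. The Hk2 share of member UMIs in fetal liver was 1.74% with every cell thinned, 1.75% with each cell weighing the same and 1.40% without B lineage and myeloid, erythroid or mast gated cells. In bone marrow it was 14.4% thinned and 13.5% with equal weights. The Hk2 share of both hexokinases was 87.4% thinned and 88.1% with equal weights in fetal liver, and 94.5% in bone marrow cells with at least 1000 genes. TMM and median-ratio scaling shifted the median of all genes by 0.14 and 0.16 (log2). The cycling ratio of Hk2 ran over -0.49 to -0.17 in fetal liver and -1.81 to -0.59 in bone marrow. The value of -0.59 is the mean with equal gate weights, which the lymphoid progenitor gate raised on few UMIs. Leaving out barcodes found in both libraries was added after seeing the data. Depth limits Slc16a3 most, with 82 UMIs in bone marrow.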

Other observations

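Genes of the branches that leave glycolysis were measured too. Of all genes tested, 7.25% passed 2-fold in favour of fetal liver and 10.9% in favour of bone marrow. Of 5 serine synthesis genes, all were tested, 2 passed 2-fold in favour of fetal liver, none in favour of bone marrow, and the median log2 ratio was 0.96. Shmt1, which converts serine to glycine in the cytosol, had 25.5 CPM in fetal liver against 6.68 CPM in bone marrow (1.93). Psat1, an aminotransferase of serine synthesis, had 67.8 CPM in fetal liver against 25.9 CPM in bone marrow (1.39), and Phgdh, which commits glycolytic carbon to serine, had 136 CPM and 69.7 CPM (0.96).

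Of 8 pentose phosphate genes, 6 were tested and none was past 2-fold in either direction, against 7.25% and 10.9% of all genes tested. Tkt, a transketolase, had 166 CPM in fetal liver against 85.4 CPM in bone marrow (0.96), Pgd, a dehydrogenase of the oxidative branch, had 45.6 CPM and 24.1 CPM (0.92), and Rpia, a pentose isomerase, had 29.5 CPM and 46.0 CPM (-0.64). Of 13 genes that feed pyruvate to mitochondria, 8 were tested and none was past 2-fold. Pdk1, which inhibits pyruvate dehydrogenase, had 9.68 CPM in fetal liver against 15.6 CPM in bone marrow (-0.69), while Dlat and Dld, subunits of that complex, both had a log2 ratio of 0.49. Of 7 gluconeogenesis genes, 1 was tested, G6pc3, with 12.9 CPM in fetal liver against 11.1 CPM in bone marrow (0.22).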
